A study of Rattus norvegicus with 8 samples.

Results

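The 4 genes described here are Vdac1, Pfkfb3, Pfkfb4 and Glul, each measured by 1 probe, out of 530 named genes in the authors' lists of probes that differed in the rat medial prefrontal cortex after juvenile fluoxetine. They were chosen by the authors' own fold and p on the same arrays, so their differences between the groups are given as a description and carry no test. The animals were 6 months old when the tissue, the whole medial prefrontal cortex, was measured. The 4 JFLX samples come from rats given fluoxetine, a serotonin reuptake inhibitor, at a dose of 10 mg/kg as juveniles, between postnatal days 28 and 48, and the 4 control samples from rats given the vehicle, a 5% sucrose solution, on the same days. The labels name no strain, sex or genotype and do not say that each sample is a separate animal. For control replicates 2 to 4 the description field mentions fluoxetine, whereas title, source name and treatment protocol make them vehicle samples, and that grouping is used here. Each sample was hybridised with Cy3 to a one-colour Agilent array of 15207 probes, with all 8 arrays on 1 slide with the groups in separate position blocks, so that position and treatment cannot be told apart. The precision is limited by having 4 arrays in each group.

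Glycolysis is paced by phosphofructokinase, and the PFKFB enzymes, Pfkfb3 and Pfkfb4 among them, make and break the fructose bisphosphate that activates it. In cultured rat cortex, neurons keep the Pfkfb3 protein low by degrading it while astrocytes hold more of it. Vdac1 is the main pore of the outer mitochondrial membrane, through which ATP, ADP and metabolites pass and to which hexokinase binds. Glul is glutamine synthetase, which in the brain lies mostly in astrocytes and turns the glutamate they take up into the glutamine that is returned to neurons.

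The probes are shown because each gene rests on a single one. The Vdac1 probe lies on chromosome 10 from 37828742 to 37828801, the Pfkfb3 probe on chromosome 17 from 78269106 to 78269165 and the Pfkfb4 probe on chromosome 8 from 114064717 to 114064776, all on the plus strand. These positions are those printed by the authors beside each probe, and their assembly is not stated. Capitals mark the TAA that starts at base 57 of the Vdac1 probe and ends a reading frame otherwise free of stop codons. The other 2 probes shown each have 2 of 3 frames without a stop codon.
Vdac1 probe: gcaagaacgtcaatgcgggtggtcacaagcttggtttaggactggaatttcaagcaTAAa
Pfkfb3 probe: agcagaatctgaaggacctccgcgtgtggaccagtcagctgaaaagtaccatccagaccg
Pfkfb4 probe: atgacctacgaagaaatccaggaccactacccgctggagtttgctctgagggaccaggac

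The Pfkfb3 and Pfkfb4 probes matched at no more than 20 of 53 bases in any ungapped alignment on either strand, and their longest shared run was 7 bases. This compares the probes with each other only. Whether either probe binds the transcript of another PFKFB gene was not tested. The Glul probe is marked as unmapped in the deposited table and has a GC content of 35.0%, against 45.0% for Vdac1 and 55.0% for Pfkfb3 and Pfkfb4. RefSeq names 15 pseudogenes of Vdac1 and 2 of Glul in the rat assembly GRCr8, and whether their transcripts bind these probes was not tested.

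In JFLX the values of Vdac1, Pfkfb4 and Pfkfb3 were higher than in control and those of Glul were lower. Vdac1 was 2.23-fold and Pfkfb4 2.03-fold the control level, Pfkfb3 was 1.61-fold, and Glul stood at 70.3% of control. The deposited log2 values are set so that each probe's control median is 0, which leaves only differences between arrays. The groups did not overlap for 3 of the 4 genes, Vdac1, Pfkfb4 and Glul, where 13.0% of all probes and 71.6% of the authors' listed probes had groups that did not overlap. Since listing favours separated groups, this count says nothing about these genes in particular.

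**Figure D1:**
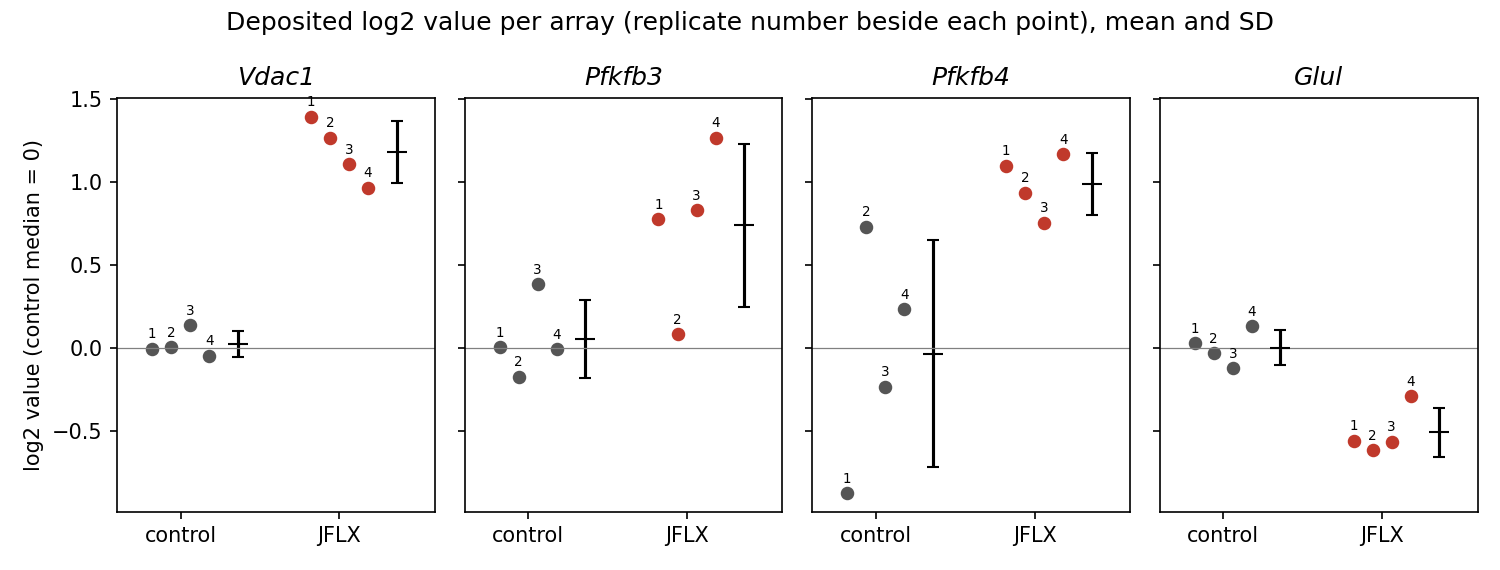
Deposited log2 value (y axis, control median set to 0) of each gene on every array, with the replicate number beside each point and the mean and SD as a black mark. Vdac1 is tight in control and clearly separated, Pfkfb4 varies most among the control arrays, Pfkfb3 overlaps through JFLX replicate 2, and Glul is lower on every JFLX array.

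Vdac1, the mitochondrial channel, had log2 values of -0.0035, 0.0035, 0.14 and -0.05 in control replicates 1 to 4 and of 1.39, 1.27, 1.11 and 0.96 in JFLX replicates 1 to 4. All JFLX arrays lay above all control arrays, with a gap of 0.83 between the nearest ones. The mean difference was 1.16 ± 0.12 on the log2 scale (moderated SE, n = 4 per group). Vdac1 varied little among the control arrays, where 92.3% of all probes had a larger SD than its 0.08. Its SD in JFLX was 0.19, or 2.35 times that in control, and 67.5% of all probes varied more there. A larger difference in the same direction was found at 1079 probes, or 7.10% of the array.

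Pfkfb4 is the PFKFB isoform first known from testis. Its log2 values were -0.87, 0.73, -0.23 and 0.23 in control replicates 1 to 4 and 1.098, 0.93, 0.75 and 1.17 in JFLX replicates 1 to 4. The control arrays were spread over a wide range while the JFLX arrays lay close together, and control replicate 2 came within 0.02 of the lowest JFLX array. The SD was 0.68 in control and 0.18 in JFLX, so that the spread in control was 3.71 times that in JFLX, and 13.2% of all probes varied more among the control arrays. The mean difference was 1.02 ± 0.32 (SE, n = 4 per group). Without control replicate 1 it was 0.74, and without control replicate 2 it was 1.28.

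Pfkfb3, the inducible isoform with the strongest kinase activity, had log2 values of 0.01, -0.17, 0.39 and -0.01 in control replicates 1 to 4 and of 0.77, 0.08, 0.83 and 1.27 in JFLX replicates 1 to 4. Here the spread was in JFLX: replicate 2 lay within the control range and the other 3 above it. The SD was 0.49 in JFLX against 0.24 in control, and 23.9% of all probes varied more among the JFLX arrays. The mean difference was 0.69 ± 0.25 (SE, n = 4 per group), and it was 0.90 without JFLX replicate 2 and 0.51 without JFLX replicate 4. The pair of PFKFB genes was thus high in JFLX with its scatter in opposite groups, and the highest deposited JFLX value of both was that of replicate 4. Before scaling between arrays this did not hold. The array matched to replicate 4 below read 24.3 for Pfkfb4 and 27.1 for Pfkfb3, against JFLX maxima of 41.1 and 37.7.

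Glul, glutamine synthetase, had log2 values of 0.03, -0.03, -0.12 and 0.13 in control replicates 1 to 4 and of -0.56, -0.61, -0.56 and -0.29 in JFLX replicates 1 to 4. Every JFLX array lay below every control array, and JFLX replicate 4 was the nearest to control, at a gap of 0.17. Before scaling between arrays, the array matched to replicate 4 below was instead the furthest from control. It read 782.8, against 1070 to 1216 on the other JFLX arrays. The mean difference was -0.51 ± 0.11 (SE, n = 4 per group), and it was -0.58 without JFLX replicate 4. A more negative difference was found at 567 probes, or 3.73% of the array. In whole tissue, fewer astrocytes and less Glul RNA per astrocyte cannot be told apart.

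**Figure D2:**
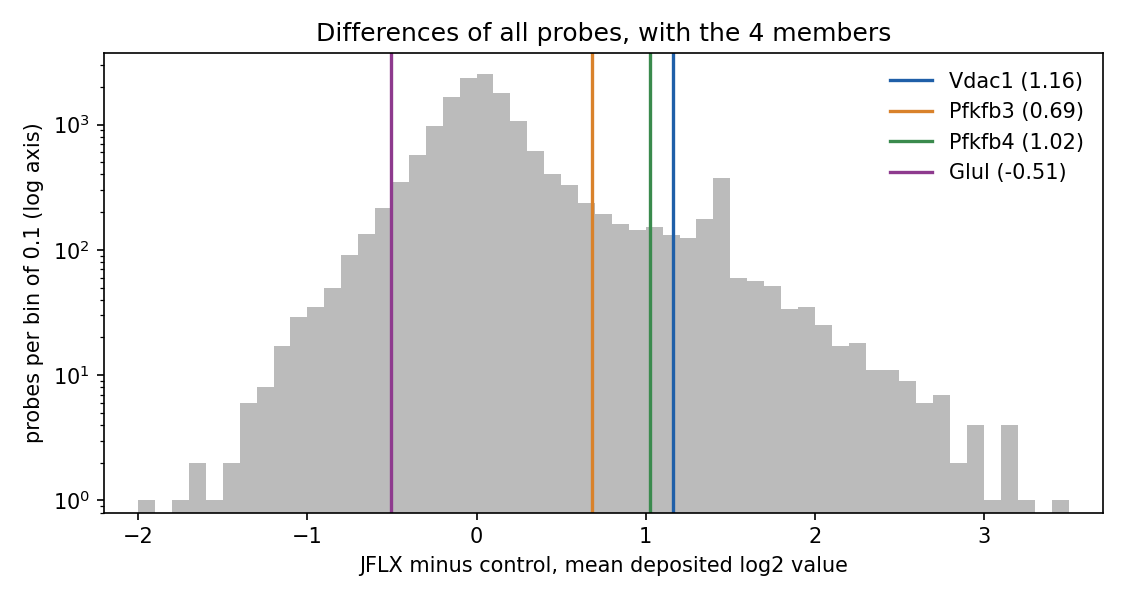
JFLX minus control difference (x axis, log2) of all 15207 probes in bins of 0.1, with the number of probes on a log axis and a coloured line for each gene. The right-hand side is the heavier one, with a spike near 1.4 to 1.5, so that Vdac1, Pfkfb4 and Pfkfb3 lie among many probes of like difference, while fewer probes lie beyond Glul on the left.

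Over all 15207 probes, 6.25% passed a limma adjusted p of 0.05, and of the 582 probes in the authors' lists, 26.5% did. Of the 4 genes, Vdac1 and Glul passed and Pfkfb3 and Pfkfb4 did not. Because the authors selected all of them on this contrast, the 2 calls are no support for a difference. The authors' lists take in 3.83% of all probes, with a median difference of 0.57 in the higher and -0.59 in the lower list, against 0.04 over all probes. In the authors' deposited table the p was 2.68e-05 for Vdac1, 0.00139 for Glul, 0.0276 for Pfkfb4 and 0.0453 for Pfkfb3, and the table required at most 0.05. Pfkfb3 was therefore the nearest to the p limit. Among unlisted probes past the fold limit but with a p above 0.05, the lowest p, computed here as in that table, was 0.0500001. Glul was nearest to the fold limit of -0.4, with a mean JFLX value of -0.51, and the first probe outside it had -0.40 (-0.3984 before rounding).

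The scanner intensities show the same genes before any scaling between arrays. They are background-subtracted and linear, and the column names give the group but no replicate number. The intensity of Vdac1 was 793.8, 795.3, 827.1 and 936.7 on the control arrays and 916, 1901, 1935 and 2184 on the JFLX arrays, in ascending order. The lowest JFLX array thus fell within the control range, and the other 3 were far above it. Glul read 1352, 1725, 1827 and 1864 in control and 782.8, 1070, 1152 and 1216 in JFLX, and the groups did not overlap.

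The intensity of Pfkfb3 was 19.59, 19.91, 19.99 and 22.67 in control and 20.4, 27.1, 34.2 and 37.7 in JFLX. Pfkfb4 read 10.4, 14.2, 22.2 and 35.8 in control and 24.3, 34.3, 35.5 and 41.1 in JFLX. In both PFKFB genes the groups overlapped before scaling. All 4 genes carried the detected flag on all 4 arrays of both groups, so none of their values is a bound. The PFKFB probes were nevertheless much dimmer than the others. By mean control intensity, 29.0% of listed probes were dimmer than Pfkfb3 and 29.4% than Pfkfb4, against 91.9% for Vdac1 and 95.5% for Glul. In JFLX the shares were 35.6% and 38.1%, against 95.7% and 94.2%.

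**Figure D3:**
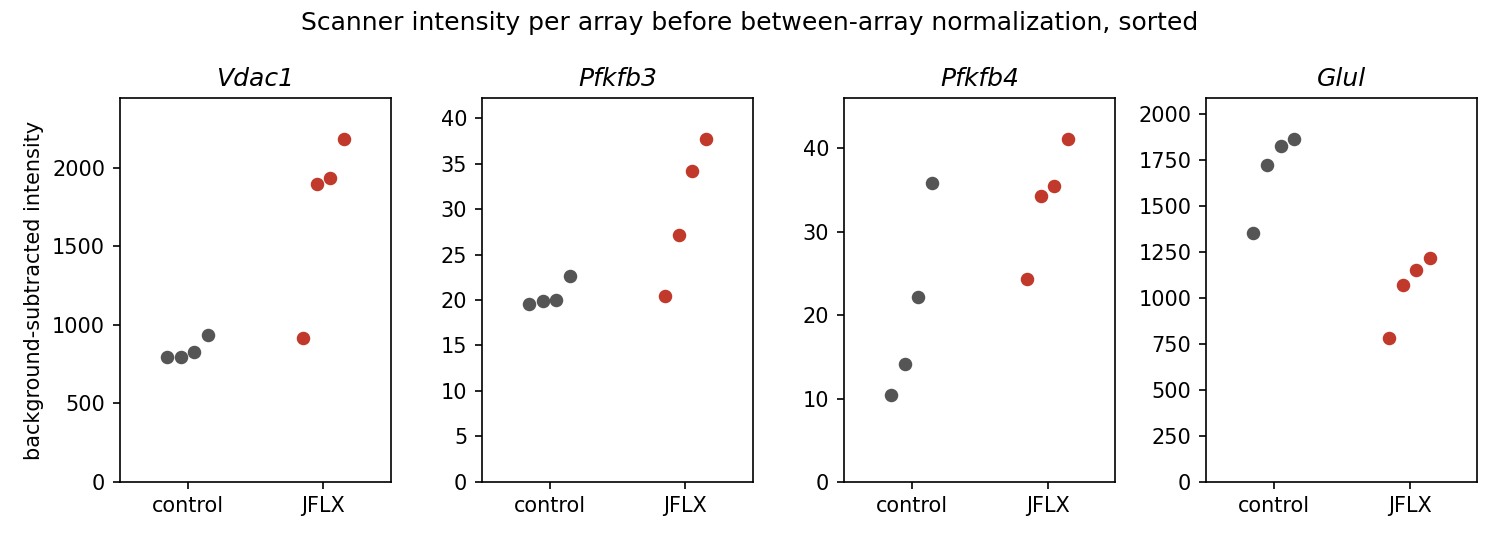
Background-subtracted scanner intensity (y axis, linear from 0, a separate scale for each gene) on the 4 control and 4 JFLX arrays, sorted within each group. For Vdac1, 3 JFLX arrays stand between 1901 and 2184 and the lowest, at 916, lies inside the control range of 793.8 to 936.7.

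The lowest Vdac1 intensity in JFLX belonged to the array with the lowest median intensity over the listed probes. Over the 582 listed probes, the median log2 intensity relative to the middle of the control arrays was 0.55, 0.57 and 0.70 on 3 JFLX arrays and -0.27 on the remaining JFLX array, and it ran from -0.10 to 0.38 on the control arrays. These probes were listed for differing between the groups, so their median is not the brightness of the whole array. The JFLX array with the lowest median read 916 for Vdac1, 24.3 for Pfkfb4 and 782.8 for Glul, the lowest JFLX value of each, and 27.1 for Pfkfb3, the second lowest in JFLX and above every control array. On unscaled intensities the difference was 0.98 for Vdac1, 0.84 for Pfkfb4, 0.50 for Pfkfb3 and -0.69 for Glul on the log2 scale. Without that array it was 1.26, 0.99, 0.54 and -0.55 in the same order, so every gene kept its direction either way. Without JFLX replicate 4 the deposited differences were 1.23, 0.96, 0.51 and -0.58, lower than these by the same amount for each gene. The values thus identify that array as JFLX replicate 4. The unscaled minus the deposited difference was -0.18 at every listed probe, to within 2.5e-07, so between groups the authors' scaling was a single shift.

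A difference between genes of the same array does not depend on any shift of the whole array. Vdac1 minus Glul was -0.03, 0.03, 0.26 and -0.18 in control replicates 1 to 4 and 1.95, 1.88, 1.67 and 1.25 in JFLX replicates 1 to 4. Each gene's control median is set to 0, so this difference lies near 0 in control by construction and does not compare the levels of the genes. Relative to control, it was larger on every JFLX array than on any control array, with means of 0.02 ± 0.18 and 1.69 ± 0.31 (SD, n = 4 each). The median intensity of Vdac1 was 811.2 in control and 1918 in JFLX, and that of Glul 1776 and 1111. Pfkfb4 minus Glul ran from -0.90 to 0.76 in control and from 1.32 to 1.66 in JFLX, and Pfkfb3 minus Glul from -0.14 to 0.51 and from 0.70 to 1.56. In all these pairs the groups were separate. Each pair sets a gene of the authors' higher list against Glul of the lower list, so listing favours this separation and it adds no support. Among the higher genes the pairs were not separate: Pfkfb3 minus Pfkfb4 ran from -0.90 to 0.88 in control and from -0.85 to 0.10 in JFLX, Vdac1 minus Pfkfb3 from -0.25 to 0.18 and from -0.30 to 1.18 (1.185 before rounding), and Vdac1 minus Pfkfb4 from -0.73 to 0.87 and from -0.20 to 0.35.

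The other genes of glycolysis place the PFKFB pair. Of a list of 40 genes of glycolysis and gluconeogenesis, 5 are in the authors' lists, which take in 3.83% of all probes. Of these, 3 are higher and 2 lower, and all 3 higher ones are PFKFB genes. The third is Pfkfb2, the isoform best known from heart, with log2 values of 0.06, 0.12, -0.06 and -0.18 in control replicates 1 to 4 and 1.11, 0.75, 0.71 and 0.93 in JFLX replicates 1 to 4. Its groups did not overlap, its difference was 0.89 ± 0.13 (SE), it passed the adjusted limma threshold, and it carried the detected flag on 4 control and 3 JFLX arrays. Of the 5, only Pfkfb2 passed, where 26.5% of listed probes did. Lists for glucose and lactate transport (18 genes), glycogen and pentose phosphate (23), pyruvate dehydrogenase and the citrate cycle (34) and regulators of glycolysis (27) had 0 genes in the authors' lists. Only listed probes carry a name here, so the values of those genes, among them hexokinases and phosphofructokinases, were not analysed here. How many of those genes have a probe on the array is not known here. With 3.83% of all probes listed, these counts are not read as a result.

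Vdac1 had 4 companions in the authors' lists from 45 genes of the outer mitochondrial membrane and the permeability transition. Bcl2l1, which encodes the survival protein Bcl-xL of that membrane, had values of 0.05, 0.24, -0.05 and -0.48 in control replicates 1 to 4 and 0.74, 0.90, 0.92 and 0.84 in JFLX replicates 1 to 4. The groups did not overlap, and the difference of 0.91 ± 0.16 (SE) passed the adjusted limma threshold. Tomm70, a receptor of the import pore, stood at 0.49 ± 0.13 and did not pass. Bcl2, another survival protein, and Itpr2, a calcium release channel that contacts mitochondria, were in the lower list. Both had the detected flag on 4 control and 0 JFLX arrays, so their JFLX values are bounds and no fold is given, and Itpr2 passed. These genes too were listed on the same contrast, where 3.83% of all probes were listed and 26.5% of listed probes passed.

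**Figure D4:**
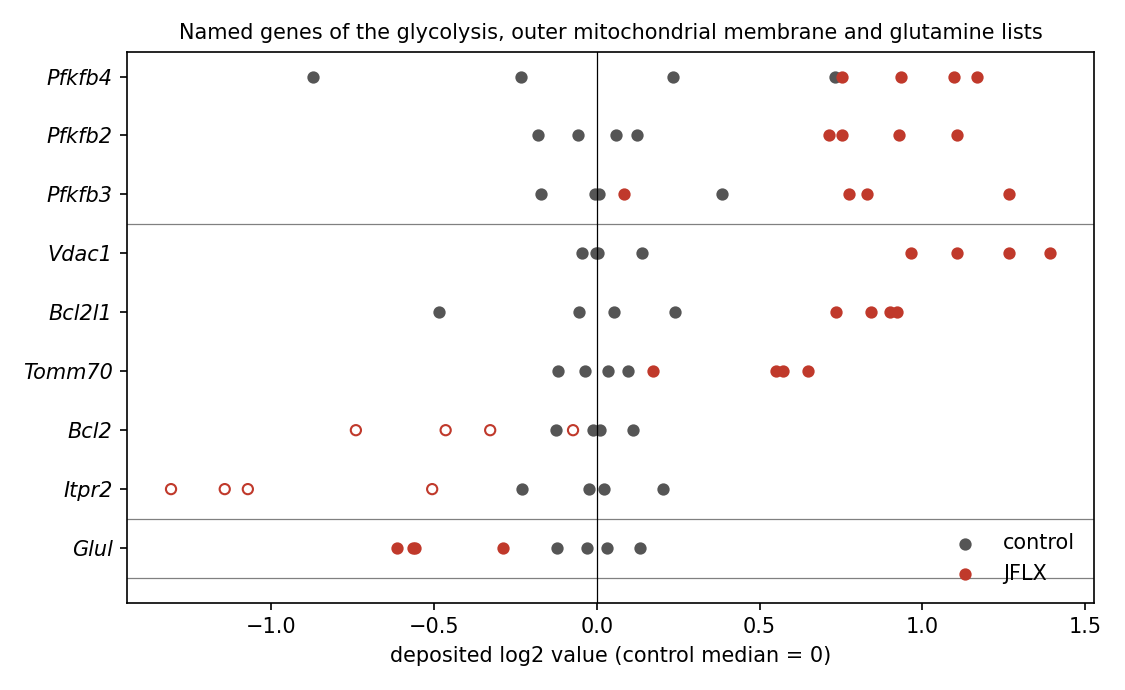
Deposited log2 values (x axis, control median set to 0) of the genes named in the text that belong to glycolysis (top), the outer mitochondrial membrane and permeability transition (middle) and the glutamine cycle (bottom), grey for control and red for JFLX arrays, open where fewer than 3 JFLX arrays had the detected flag. The 3 PFKFB genes, Vdac1, Bcl2l1 and Tomm70 lie to the right in JFLX and Glul to the left.

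For Glul, 1 of 34 genes of the glutamate and glutamine cycle was listed, Glul itself. As an astrocyte marker it has 1 companion among 16, Atp1b2, a sodium pump subunit of astrocytes, whose difference was of the opposite sign: 0.55 ± 0.20 (SE), with overlapping groups, not passing. The defining astrocyte markers Gfap and Aqp4 are not among the named probes and were not analysed here. Of the neuron markers, 2 of 16 were listed, Camk2a at 0.56 ± 0.19 and Neurod2 at -0.46 ± 0.15, and of the endothelial and mural markers 1 of 14, Pecam1 at 0.68 ± 0.25. None of these 3 passed, where 26.5% of listed probes did. Oligodendrocyte and microglia markers (14 and 12) had 0 listed genes. With 3.83% of all probes listed, the counts in these lists are not read as a result. The part of cell makeup in the 4 differences was not tested.

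Across the 8 arrays, and among 529 other named genes, the pattern of Vdac1 was most like that of Stk32c, Rab5b and Tle5 (Pearson r = 0.988, 0.980 and 0.976). Pfkfb4 was most like Pgrmc2, Mdm2 and Cav2 (r = 0.989, 0.969 and 0.953), and Pfkfb3 most like Gpr158, Zmynd11 and Slc12a7 (r = 0.930, 0.888 and 0.887). Glul was most like Ube2c, Gbp4 and Hagh (r = 0.940, 0.935 and 0.935), of which Ube2c and Gbp4 had the detected flag on 0 JFLX arrays. These coefficients hold the group difference on which all these genes were listed, and each point shares its array with every gene.

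With group means taken out, the order changed for most. Pfkfb4 kept Pgrmc2, a membrane haem-binding protein, and Mdm2, the ubiquitin ligase of p53, as its closest genes (r = 0.979 and 0.925 over the 8 deviations), followed by Fkbp6 (r = 0.898). Vdac1 then went with Dok2, Il17ra and Tle5 (r = 0.928, 0.925 and 0.858), Pfkfb3 with Ube2c, Rrp1b and Rpl28 (r = 0.915, 0.900 and 0.888), and Glul with Rab39a, Trim63 and Scrt1 (r = 0.827, 0.817 and 0.730). Of these, the 8 genes in the lower list, Fkbp6, Dok2, Il17ra, Ube2c, Rrp1b, Rpl28, Rab39a and Trim63, had the detected flag on 0 JFLX arrays. All these partners were picked as the highest among 529 genes over only 8 arrays. Such a choice favours high coefficients, and none of them was tested. Between the 4 genes, the deviations of Vdac1 and Glul had r = -0.78, those of Pfkfb3 and Glul 0.46 and those of Vdac1 and Pfkfb3 -0.37, while Pfkfb4 lay between -0.09 and 0.17 with each of the others. These coefficients depend on the scaling between arrays. As deposited, JFLX replicate 4 had the lowest Vdac1 value of its group (0.96) and the highest Glul value (-0.29). Before scaling, the array matched to it had the lowest JFLX intensity of both, 916 and 782.8.

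The promoters of the 3 genes from the authors' higher list are shown so that their letters can be set side by side. They are the 250 bases before the start in RefSeq's table for GRCr8, plus strand: Vdac1 at chr10:37032959-37033208, Pfkfb3 at chr17:71944683-71944932 and Pfkfb4 at chr8:118525916-118526165. Capitals mark ACGTG, the core that hypoxia-inducible factors bind, and GGGCGG, the GC box bound by Sp factors, each on either strand.
Vdac1 promoter: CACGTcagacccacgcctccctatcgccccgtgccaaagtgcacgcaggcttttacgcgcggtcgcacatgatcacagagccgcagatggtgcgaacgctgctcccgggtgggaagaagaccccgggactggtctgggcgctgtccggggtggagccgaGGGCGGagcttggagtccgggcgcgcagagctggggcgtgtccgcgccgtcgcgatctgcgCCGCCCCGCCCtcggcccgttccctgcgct
Pfkfb3 promoter: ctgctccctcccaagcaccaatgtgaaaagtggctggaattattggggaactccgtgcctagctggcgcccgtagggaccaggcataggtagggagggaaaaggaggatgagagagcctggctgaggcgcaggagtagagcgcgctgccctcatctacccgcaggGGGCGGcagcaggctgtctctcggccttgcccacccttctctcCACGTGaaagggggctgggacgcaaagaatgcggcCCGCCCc
Pfkfb4 promoter: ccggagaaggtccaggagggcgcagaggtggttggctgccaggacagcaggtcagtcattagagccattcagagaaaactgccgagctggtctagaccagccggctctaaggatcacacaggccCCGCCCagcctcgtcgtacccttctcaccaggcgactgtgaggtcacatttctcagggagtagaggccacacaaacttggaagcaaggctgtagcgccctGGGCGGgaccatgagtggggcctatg

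GGGCGG occurs in all of them, 3 times in Vdac1, where 2 matches overlap, and 2 times each in Pfkfb3 and Pfkfb4, against 30.5% of 33469 promoters of this length with at least 1 match. It also occurs once in each of the 2 Glul promoters in the table. ACGTG occurs once in Vdac1, at the far end of the window on the minus strand, and in Pfkfb3 as the palindrome CACGTG, which begins at position -42 from the gene's start and counts on both strands. It occurs in 16.6% of all promoters, and CACGTG, which contains it, in 5.59%. Neither is in the windows of Pfkfb4 or Glul. TATAAA, in 12.9% of promoters, is in none of these windows. The GC content was 71.2% in Vdac1, 63.6% in Pfkfb3, 60.4% in Pfkfb4 and 54.4% and 67.2% in the 2 Glul windows, against a median of 51.2% over all promoters, and the matches are descriptions of letters only.

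**Figure D5:**
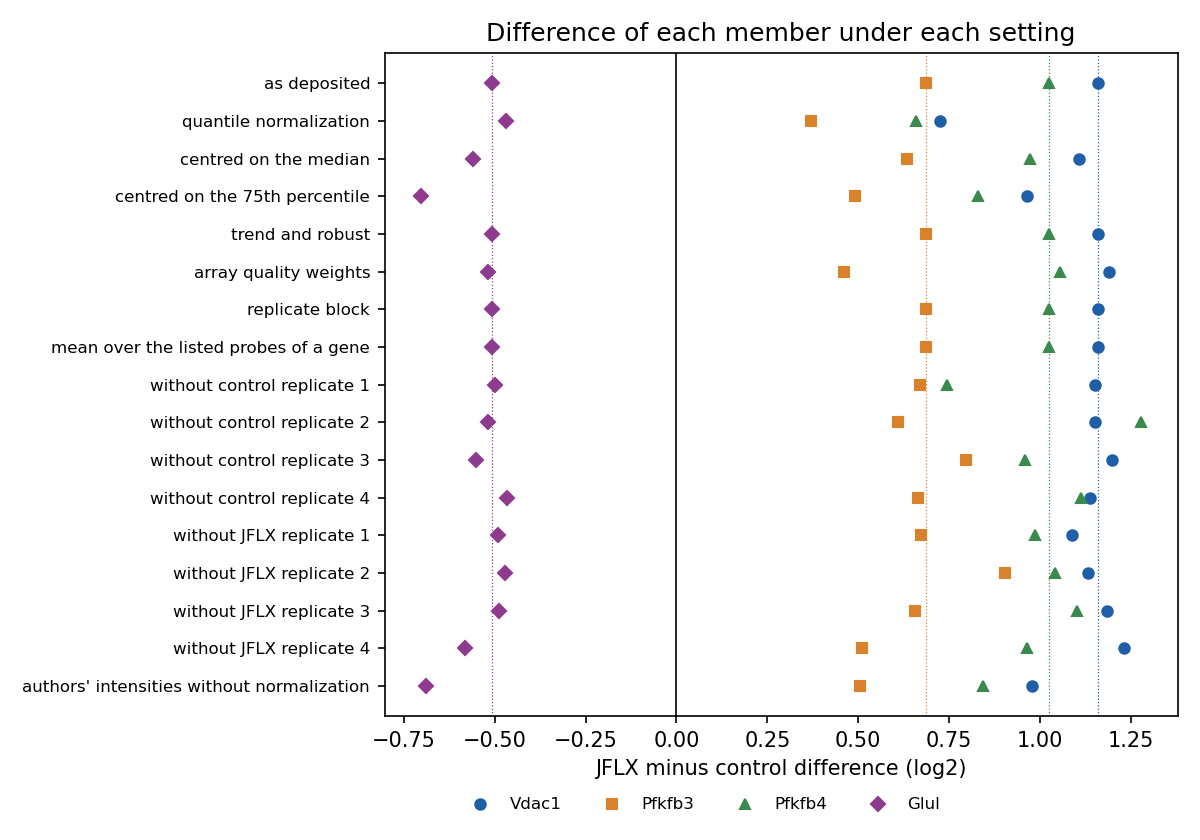
JFLX minus control difference (x axis, log2) of each gene as deposited and under each other setting (rows), with a dotted line at the deposited difference. Every marker stays on its side of 0, and quantile normalization gives the lowest difference of Vdac1, Pfkfb4 and Pfkfb3 (0.73, 0.66 and 0.37).

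Under 16 other settings all 64 differences of the 4 genes kept their sign, although some settings, such as the replicate block, cannot change a difference. Leaving out a single array cannot reverse the sign for Vdac1, Pfkfb4 or Glul, whose groups did not overlap. The genes were also listed on this same contrast, so neither the signs nor the calls under these settings add support. Vdac1 passed the adjusted limma threshold in 14 of the 15 settings with a test, all but quantile normalization. That setting lowered the difference to 0.73 for Vdac1, 0.66 for Pfkfb4 and 0.37 for Pfkfb3. Glul passed in 5 of 15, Pfkfb3 in 1, without JFLX replicate 2, and Pfkfb4 in 1, without control replicate 2.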

How the data were processed

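The submitters labelled 500 ng of total RNA per sample with Cy3 and hybridised it to a custom Agilent rat array, per the labels' protocols. The value table deposited by the authors holds log2 values with the control median at 0 for each probe. Their lists add background-subtracted intensity, log2 group means and detected flags, per the file headers, and a p-value from the authors, equal to that of an equal-variance t statistic within a relative 7.91e-07. They required a mean JFLX value of at least 0.4 (or at most -0.4), a p of at most 0.05 and the detected flag on at least 3 or 4 arrays of a group. For scanner software and normalization method the sources used here give nothing. All 8 arrays share 1 slide with the groups in separate position blocks, so position and treatment cannot be told apart.

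Members were found by symbol or gene ID in the lists: 551 of 582 listed probes were named through a RefSeq table (GRCr8), 14 kept the file's symbol, and the 14625 unlisted probes are unnamed here. The members and gene lists were chosen with earlier results of these data known. Genes named beside the members are the listed genes of those lists and, for each member, the 3 with the highest Pearson r over the arrays, with and without group means. Differences, moderated SE and calls come from limma 3.58.1 in R 4.3.3, two-sided, Benjamini-Hochberg adjusted over 15207 probes at 0.05, and the fit was tested on simulated data. Since separate animals are not stated, its p-values reflect the spread among the samples as labelled, which may be technical. Tables and plots used Python 3.11.15, pandas 2.3.3, scipy 1.17.1 and matplotlib 3.10.9. Intensity columns of the lists were assigned by name to groups only, and 16 other columns of values per array were not used. The JFLX array with the lowest median intensity was matched to replicate 4 from its values. Alternatives were other normalizations, eBayes with trend and robust, array weights, a replicate block, gene means, unscaled intensities and leaving out each array. The lower genes of the glycolysis list are counted but not reported here one by one.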

Additional observations from a re-analysis of the deposited data

Results flagged for a closer look

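No array value of the 4 genes stood apart from its group of 4 by Dixon's gap test, in 8 groups tested. The nearest was Glul in JFLX replicate 4, at a log2 value of -0.29, whose gap to the next JFLX array was 0.8265 of the range. This is its place in the deposited values: before scaling, the array matched to it had the lowest Glul intensity in JFLX, 782.8.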

How the results depend on the processing

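The 2 calls among the 4 genes, Vdac1 and Glul, were 0 with quantile normalization, where all probes also went from 950 calls to 0 and the Vdac1 difference from 1.16 to 0.73; quantile normalization forces all arrays to 1 distribution. There limma had 1298 probes at an unadjusted p under 0.05, Vdac1 and Glul among them, against 2350 as deposited. With trend and robust in eBayes only Vdac1 passed (1 call). Centring on the 75th percentile gave differences of 0.96 for Vdac1 and -0.70 for Glul and split the calls over all probes into 682 higher and 221 lower, against 896 and 54 as deposited; the unscaled intensities gave 0.98 and -0.69. Leaving out single arrays gave 1 to 2 calls among the 4 genes: without JFLX replicate 4 they were Vdac1 and Glul, without control replicate 2 Vdac1 and Pfkfb4, without JFLX replicate 2 Vdac1 and Pfkfb3, and without any other array Vdac1 alone. Over these settings the differences ran from 1.09 to 1.23 for Vdac1, 0.51 to 0.90 for Pfkfb3, 0.74 to 1.28 for Pfkfb4 and -0.58 to -0.47 for Glul, and the calls over all probes from 780 to 907. With the replicate number as a block 1 call was left, Vdac1. Deviations of same-numbered samples had correlations of -0.04, 0.40, 0.12 and -0.28, and 3 of 8 samples correlated best with their own number. With so few samples, these values do not settle whether the numbers pair the samples. Apart from quantile normalization, where the array distributions are made equal, the cause was not tested. The filter on dim probes was not run, since flags cover listed probes only, nor the slide block, with 1 slide.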
